A study of Mus musculus with 96 samples.

Results

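The libraries described here are those of mouse intestinal organoids labelled APCmin/-;BMAL1+/+, called Apc-min below, which were followed from 24 to 46 h after a pulse of dexamethasone. All 22 library columns of this genotype in the deposited table of TPM, a unit of expression scaled for transcript length and for the library total were taken, out of 24 labelled libraries of the genotype and of 88 library columns over the 4 genotypes of the series. Organoids are small epithelial structures grown in gel from stem cells of the gut lining, and these are labelled as adenoma organoids (from a benign tumour of the gut lining), primary derived, of strain C57BL/6. Apc is a brake on Wnt signalling, APCmin is an allele with a truncated protein, and Bmal1 (Arntl) is a core activator of the circadian clock, here of the wild-type genotype. Organoids of every genotype received 0.1 µM dexamethasone, a glucocorticoid used to set cell clocks to a common phase, for 1 h and then fresh medium, and RNA was collected every 2 h. The Apc-min cultures, with or without Bmal1, were kept in medium EN, and the cultures with wild-type Apc in medium ENR. The 2 genotypes used for comparison were Apc-min organoids that also lack Bmal1 (Bmal1-null, medium EN) and control organoids labelled APC+/+;BMAL1+/+ (medium ENR), with 22 libraries each. The labels give 2 organoid lines per genotype and do not tie a library to a line, so the p-values below measure the spread between libraries and not between animals or lines.

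Of the 12 time points, 10 had 2 Apc-min libraries and the times 24 and 32 h had 1. The libraries carry running numbers. At each time with a pair, one belonged to a lower-numbered set (10 libraries) and the other to a higher-numbered set (12 libraries), a split by label only. The depth was 29.8 to 41.9 M uniquely mapped reads (mean 35.9 ± 2.78 M, SD, n = 22). All 10 markers of epithelium in the list used here had a mean of 1 TPM or more. Of the 6 markers of neurons and glia 0 did. The counts were 2 of 10 for fibroblasts, 2 of 10 for immune cells, 2 of 6 for endothelial cells and 1 of 5 for smooth muscle. For gastric and colon epithelium they were 5 of 11 and 3 of 8. The change in the APCmin allele cannot be checked from gene totals. One library went against its label. The 28 h library numbered 9 held Arntl at 4.09 TPM against 7.2 to 17.3 TPM in the other 21 Apc-min libraries, Cry1 at 48.6 against 10.5 to 23.2 TPM and Nr1d2 at 2.87 against 8.18 to 13.5 TPM. All 3 values lay within the ranges of the other 21 Apc-min Bmal1-null libraries (2 to 6.22, 26.1 to 62.4 and 1.68 to 3.54 TPM), and the 28 h library numbered 10, labelled Bmal1-null, held Arntl at 14.7 TPM. Nr1d1 in library 9, at 6.04 TPM, lay within the range of the other Apc-min libraries (5.4 to 19.3 TPM) and just above that of the Bmal1-null ones (1.81 to 5.86 TPM). Results are therefore given with library 9 and without it.

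Cells short of oxygen stabilise the transcription factor HIF-1, which binds the hypoxia response element and raises genes of glucose uptake, glycolysis, lactate export, blood vessel growth and the turnover of mitochondria. The clock is a loop in which BMAL1 and CLOCK drive the Per, Cry and Nr1d genes through a related element, the E-box, and the products of those genes repress the loop. In the gut both programmes act in the same epithelium, where stem cells at the crypt base give rise to Paneth, goblet and absorptive cells.

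The 5 genes with the highest rise over the time course, among those called with and without library 9, were Slc16a3, Bnip3, Mgarp, Selenbp1 and Adm. Their promoters are shown. The genes were chosen by this rise, so their shared rise follows from the choice, and their sequence was not used to choose them. Each line gives the 250 bases before the start of the gene in RefSeq (assembly GRCm38.p6), read 5′ to 3′ on the gene's strand. Capitals mark the core of the hypoxia response element, ACGTG or GCGTG, and its reverse complement, CACGT or CACGC. The E-box CACGTG overlaps this core and is in capitals too. The windows are chr11:120948817-120949066 (plus strand) for Slc16a3, chr7:138909507-138909756 (minus) for Bnip3, chr3:51396548-51396797 (minus) for Mgarp, chr3:94932833-94933082 (plus) for Selenbp1 and chr7:110627407-110627656 (plus) for Adm.
Slc16a3: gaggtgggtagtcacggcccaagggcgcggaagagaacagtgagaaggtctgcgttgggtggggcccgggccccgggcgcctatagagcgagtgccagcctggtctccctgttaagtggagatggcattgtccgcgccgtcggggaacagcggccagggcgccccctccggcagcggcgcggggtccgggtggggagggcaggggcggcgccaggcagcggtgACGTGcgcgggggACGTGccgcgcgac
Bnip3: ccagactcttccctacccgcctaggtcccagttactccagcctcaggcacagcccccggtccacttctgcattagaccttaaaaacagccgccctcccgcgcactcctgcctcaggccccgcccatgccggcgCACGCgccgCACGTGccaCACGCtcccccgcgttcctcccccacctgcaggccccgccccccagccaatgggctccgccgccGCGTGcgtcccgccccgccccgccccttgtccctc
Mgarp: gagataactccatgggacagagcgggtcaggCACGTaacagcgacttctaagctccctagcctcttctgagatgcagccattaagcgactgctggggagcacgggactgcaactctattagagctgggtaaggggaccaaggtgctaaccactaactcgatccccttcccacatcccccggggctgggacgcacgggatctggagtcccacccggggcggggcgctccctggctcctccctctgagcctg
Selenbp1: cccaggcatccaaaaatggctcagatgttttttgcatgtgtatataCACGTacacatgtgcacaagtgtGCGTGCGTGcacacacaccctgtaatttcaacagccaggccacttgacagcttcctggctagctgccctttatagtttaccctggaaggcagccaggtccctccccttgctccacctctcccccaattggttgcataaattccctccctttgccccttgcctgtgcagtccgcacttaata
Adm: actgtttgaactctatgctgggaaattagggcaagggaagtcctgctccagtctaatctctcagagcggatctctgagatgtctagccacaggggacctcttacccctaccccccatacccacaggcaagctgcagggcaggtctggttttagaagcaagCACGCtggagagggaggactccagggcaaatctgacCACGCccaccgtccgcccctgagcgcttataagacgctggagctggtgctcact

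The Slc16a3 window held 2 cores, at 27 and 14 bases before the start. The Bnip3 window held 5, of which 2 overlap in 1 E-box. The Mgarp window held 1 core, 219 bases before the start, the Selenbp1 window 3 and the Adm window 2. The core is short and common: on either strand it occurred in 41.5% of all 27025 promoters of the table and in 62.5% of the 9460 promoters matched to genes tested here. It occurred in 20 of the 22 matched promoters of the list of glycolysis and hypoxia genes (90.9%). In the 115 matched promoters of the 149 genes called at least 2-fold higher late, the share was 62.6%, that of the tested genes. The form ACGTG alone occurred in 25.5% of the promoters of tested genes, in 59.1% of those of the list and in 31.3% of those called at least 2-fold higher. A match describes these letters in this window and not binding by a factor.

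Most genes of the hypoxia and glycolysis list rose in Apc-min organoids over the day. The list was chosen with earlier results of these data known. In the comparison of 8 libraries at 40 to 46 h (late) with 7 libraries at 24 to 30 h (early), 22 of the 23 tested genes of the list were called higher late by limma, at an adjusted p under 0.05, and 0 were lower even at an unadjusted p under 0.05. Their median difference was 0.97 on the log2(TPM + 1) scale, against 0.07 over all 12623 genes tested. Over all genes, 2143 were called higher (17%) and 741 lower (5.87%). Without library 9, 1560 were called higher (12.4%) and 454 lower (3.59%), and 21 genes of the list were called both ways. TPM adds to a fixed total, so the split of all calls depends on the scaling. With median-of-ratios scaling, 1340 genes were called higher (10.6%) and 1743 lower (13.8%), and 21 genes of the list were still higher. That scaling moved the median over all genes by 0.11 on the slope over 22 h and by 0.08 on the late difference. The count of 2884 calls in both directions fell to 1663 without the 24 h library 4, 1758 without the 28 h library 12, 1755 without the 42 h library 37 and 1875 without the 40 h library 33. Differences on this log scale understate the change of low genes. The early window held fewer lower-numbered than higher-numbered libraries, so a late difference can include a level difference between the sets. With the library set as a term and without library 9, the median of the list was 0.78, against 0.08 over all genes.

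Among regulators, Hif1a, which codes for the oxygen-sensitive subunit of HIF-1, lay between 45.9 and 73 TPM in every library and its late difference was −0.09 ± 0.10 (log2, SE, limma adjusted p = 0.527). HIF-1 is mostly regulated at the protein level, which was not measured. Egln3 (chr12:54178981-54203860) codes for a prolyl hydroxylase that marks HIF proteins for destruction and is itself a HIF target. Its early values ran from 12.3 through a median of 40.2 to 308 TPM and its late values from 176 through 385 to 554 TPM. Early and late libraries overlapped, since the lower-numbered libraries at 26 and 30 h were already high. The late difference was 2.44 ± 0.60 (limma adjusted p = 0.0121), and 2.07 without library 9 (adjusted p = 0.0225). Hif3a, a HIF family member and HIF target, went from 0.28, 0.81 and 3.14 TPM (lowest, median and highest early library) to 4.1, 6.27 and 9.76 TPM. All 8 late libraries lay above all 7 early ones, as they did for 219 of all genes tested (1.73%), and its difference was 1.79 ± 0.24 (limma adjusted p = 0.00113).

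The fuel genes rose by less from higher levels. Ldha, which makes lactate from pyruvate, had a median of 1514 TPM early and 3166 TPM late, with a difference of 0.75 ± 0.19 (limma adjusted p = 0.0135). Tpi1, Pgk1 (both glycolytic enzymes) and Slc2a1 (the glucose transporter GLUT1) differed by 0.77, 0.87 and 0.73, with limma adjusted p-values of 0.00755, 0.011 and 0.00313. Pdk1, the kinase that keeps pyruvate out of mitochondria, lay at 20.5 to 98.2 TPM early and at 106 to 168 TPM late with no overlap. Car9, a carbonic anhydrase of the cell surface that handles acid, lay at 35.8, 41.5 and 78.9 TPM early (lowest, median, highest) and at 93.2, 107 and 149 TPM late, also with no overlap. Their differences were 1.68 ± 0.29 and 1.16 ± 0.17 (limma adjusted p = 0.00329 and 0.00189). Windows did not overlap for 4 of the 23 genes of the list.

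Slc16a3 codes for the lactate exporter MCT4 (chr11:120948480-120960868 in the GENCODE annotation, whose outermost start lies before the RefSeq start used for the promoter window). In the higher-numbered set it read 1.59, 1.85, 5.33 and 7.08 TPM at 24, 26, 28 and 30 h and 93.1, 88.6, 102 and 168 TPM at 40, 42, 44 and 46 h. In the lower-numbered set it read 104 and 98.3 TPM at 26 and 30 h, 0.32 TPM in library 9, and 134, 141, 148 and 155 TPM from 40 to 46 h. The higher-numbered libraries thus started near 0 and met the other set only at 46 h. Over both sets the late difference was 3.80 ± 0.82 (limma adjusted p = 0.00715), and 3.33 without library 9 (adjusted p = 0.0142). Bnip3, which marks mitochondria for removal (chr7:138890836-138909519), is given in the same way. It read 5.42, 7.19, 10.4 and 13.4 TPM early and 120, 130, 157 and 232 TPM late in the higher-numbered set. In the lower-numbered set it read 281 and 221 TPM early, 2.11 TPM in library 9, and 356, 382, 410 and 512 TPM late. The early libraries therefore spread over both sides of the late values of one set, and the difference was 3.61 ± 0.87 (limma adjusted p = 0.011), or 3.15 without library 9 (adjusted p = 0.0228).

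Other genes of large rise belonged to secreted signals, mitochondria and metabolism. Vegfa, the main growth factor of blood vessels, had a median of 11.1 TPM early and 141 TPM late, a difference of 2.48 ± 0.59 (limma adjusted p = 0.0106). Adm, the vasodilator peptide adrenomedullin, had medians of 1.43 and 37.2 TPM, a difference of 2.81 ± 0.67 (limma adjusted p = 0.011). For both, the 26 and 30 h libraries of the lower-numbered set were the high early ones and overlapped the low late ones. Ak4, an adenylate kinase of mitochondria, differed by 2.42 ± 0.53, Ndrg1, a stress response gene, by 2.30 ± 0.45, and Cyp2s1, a cytochrome P450, by 2.41 ± 0.62 (limma adjusted p = 0.00749, 0.00536 and 0.0154). Selenbp1, a selenium-binding protein, differed by 2.81 ± 0.61 (limma adjusted p = 0.0071). Mgarp, a mitochondrial protein, went from 0.04 to 0.2 TPM early to 5.72 to 13.3 TPM late in the higher-numbered set. In the lower-numbered set it read 22.2 and 16.01 TPM at 26 and 30 h and 28.34 to 46.71 TPM late, and it is listed at 0 in library 9. Early and late libraries overlapped, and its difference over both sets was 2.88 ± 0.76 (limma adjusted p = 0.017). In bulk RNA, fewer cells of a type and less RNA per cell cannot be told apart, here and below.

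**Figure D1:**
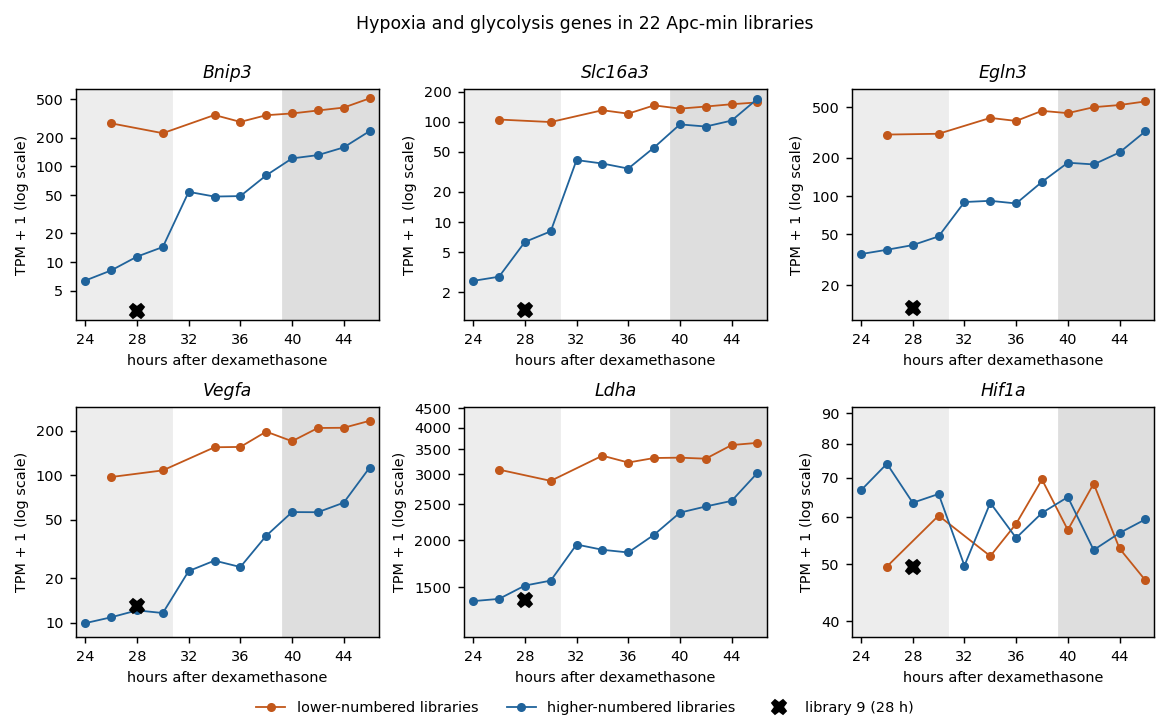
TPM + 1 (log axis) of 6 hypoxia and glycolysis genes against hours after dexamethasone in all 22 Apc-min libraries; points are single libraries, lines join the lower-numbered (orange) and higher-numbered (blue) sets, the cross is library 9 and grey bands mark 24 to 30 h and 40 to 46 h. Bnip3 climbs from 5.42 to 232 TPM in the higher-numbered set and from 281 to 512 TPM in the lower-numbered set, while Hif1a stays between 45.9 and 73 TPM.

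The 2 library sets rose from different starting levels, so a straight line was fitted in each without library 9. Its slope is given as the fitted log2 change over the 22 h. In the higher-numbered set 22 of the 23 hypoxia and glycolysis genes had a rising slope and in the lower-numbered set 15 did, and the fitted slope of the other genes did not pass. Over all genes 2917 (23.1%) rose and 1199 (9.49%) fell in the higher-numbered set, and 1436 (11.4%) rose and 995 (7.88%) fell in the lower-numbered set. The median slope of the list was 1.38 and 0.60, against 0.13 and 0.08 for all genes. The difference between the sets was itself called for 14 of the 23 genes, all with a higher slope in the higher-numbered set, against 126 of all 12633 genes with a higher slope there (0.997%) and 67 with a lower one (0.53%). The calls in both directions were 193 (1.53%). With library 9 kept, 23 genes in all were called (0.182%). Without the 46 h library 45 the 193 calls became 112, without the 30 h library 13 they became 124 and without the 26 h library 5 they became 339.

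Bnip3 rose by 5.28 ± 0.29 in the higher-numbered set, and its slope of 1.01 ± 0.37 in the lower-numbered set missed the threshold (limma adjusted p = 0.0618). The difference of 4.27 ± 0.47 had a limma adjusted p of 4.53e-05. For Slc16a3 the slopes were 6.09 ± 0.42 and 0.70 ± 0.54 and the difference 5.40 ± 0.69 (limma adjusted p = 0.000183). Ak4, Egln3, Pdk1 and Vegfa were also steeper in the higher-numbered set, by 3.36, 2.22, 2.12 and 2.08. Hif3a rose in both sets, by 2.56 and 1.45, and no difference between the sets was called for it (limma adjusted p = 0.338). Within the higher-numbered set the late libraries lay above the early ones for 22 of the 23 genes (all genes: 2925, 23.2%), and within the lower-numbered set without library 9 for 20 (all genes: 2517, 19.9%).

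**Figure D2:**
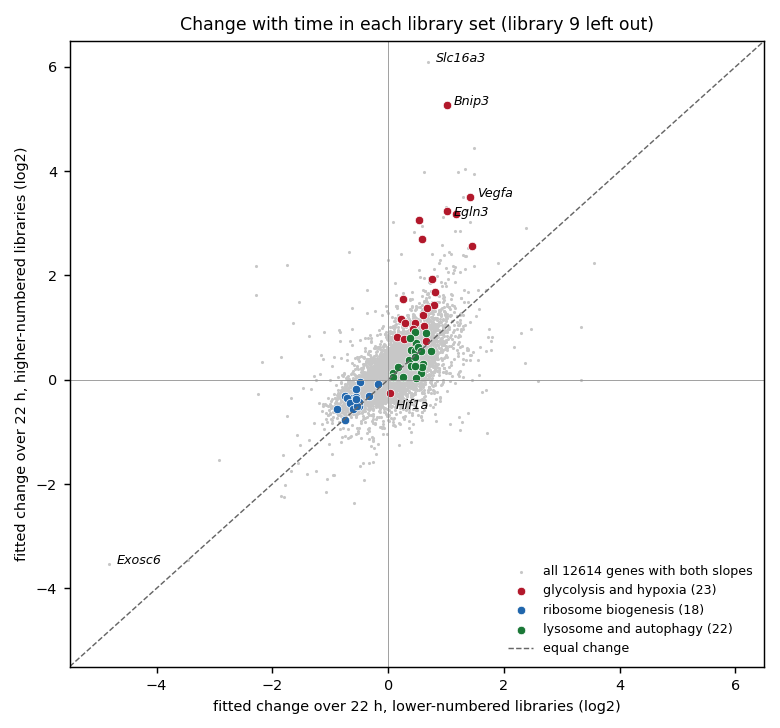
Fitted log2 change over 22 h in the lower-numbered (x) and higher-numbered (y) Apc-min libraries without library 9; grey points are single genes, coloured points the members of 3 lists and the dashed line equal change. The glycolysis and hypoxia genes lie mostly above the line (median 0.60 on x and 1.38 on y), and the ribosome biogenesis genes lie below 0 on both axes (medians −0.55 and −0.38).

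The clock genes changed by less. Of 19 tested clock genes, 7 were called higher late by limma (all genes: 17%), 5 of the 7 also without library 9 (all genes: 12.4%). Even at an unadjusted p under 0.05, 0 of the 19 were lower. Their median difference was 0.34, or 0.30 with the library set as a term and without library 9. Arntl lay at 4.09, 7.68 and 12.2 TPM early (lowest, median, highest) and at 10.2, 12.5 and 16.9 TPM late. The windows overlapped, and the difference was 0.65 ± 0.16 (limma adjusted p = 0.014), or 0.52 without library 9 (adjusted p = 0.0175). Bhlhe40, a repressor of the clock that HIF-1 also induces, had medians of 57.6 and 180 TPM and differed by 1.13 ± 0.26 (limma adjusted p = 0.00925). Ciart, another repressor, differed by 0.94 ± 0.21 (limma adjusted p = 0.00892) and Per1 by 0.46 ± 0.11 (limma adjusted p = 0.0117). Nfil3, a repressor of clock output genes, lay at 7.29, 9.1 and 9.71 TPM early and at 9.75, 12.4 and 16.4 TPM late with no overlap, a difference of 0.44 ± 0.10 (limma adjusted p = 0.0071). Per3 (0.60) and Csnk1d (0.17) were called with all libraries (limma adjusted p = 0.0425 and 0.0367) and not without library 9 (0.0869 and 0.0663). With median-of-ratios scaling the other 5 were called, and Per3 and Csnk1d were not (limma adjusted p = 0.0764 and 0.182).

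For the other core genes no late difference was called with all libraries. Per2 differed by −0.03 (limma adjusted p = 0.927), Cry1 by −0.26 (0.44), Clock by −0.06 (0.838), Nr1d1 by 0.22 (0.471), Nr1d2 by 0.17 (0.586) and Dbp, a clock output factor, by 0.43 (0.279). Cry2 differed by 0.34 with it (limma adjusted p = 0.11) and was called without it, at 0.47 (0.0146). Per2 held 6.78 TPM in library 9 and 1.91 to 3.56 TPM in the other 21 libraries. Npas2, the partner that can stand in for Clock, rose from 3.71 TPM at 24 h to 18.2 TPM at 46 h in the higher-numbered set and lay between 1.43 and 3.4 TPM in the lower-numbered set, with 13.5 TPM in library 9. Its slope differed between the sets by 1.57 ± 0.32 (limma adjusted p = 0.0115), and that of Ciart by 1.48 ± 0.22 (0.000615). Nr1d1 rose in the lower-numbered set (0.78, limma adjusted p = 0.0233) and not in the other (−0.20, 0.43). The difference between these slopes was −0.98 and was not called (0.128).

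A cosine of 24 h period was fitted to 1 sampled cycle, so a rhythm and a single rise or fall cannot be told apart. It was called for 1 of the 19 clock genes (Arntl, limma adjusted p = 0.024), against 12% of all 12625 genes. At an unadjusted p under 0.05 it held for 6, and over all genes for 3913 of 12625. Without library 9 it was called for 0 by limma, against 3.17% of all genes. At an unadjusted p under 0.05 it then held for 8, and over all genes for 3163 of 12633. With library 9 left out and the library set added as a term, it was called for 10, against 35% of all genes. A linear time term added to that fit left 0 of all genes called by limma, 1932 of them with an unadjusted p under 0.05. Of the 1513 genes with a cosine call, 1429 also had a called straight line, and the straight line was called for 3943 genes (31.2%). The count of cosine calls rose to 2643 without the 30 h library 13. It fell to 403, 494, 517, 704, 742, 759 and 876 without libraries 37 (42 h), 12 (28 h), 29 (38 h), 16 (30 h), 20 (32 h), 33 (40 h) and 41 (44 h).

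**Figure D3:**
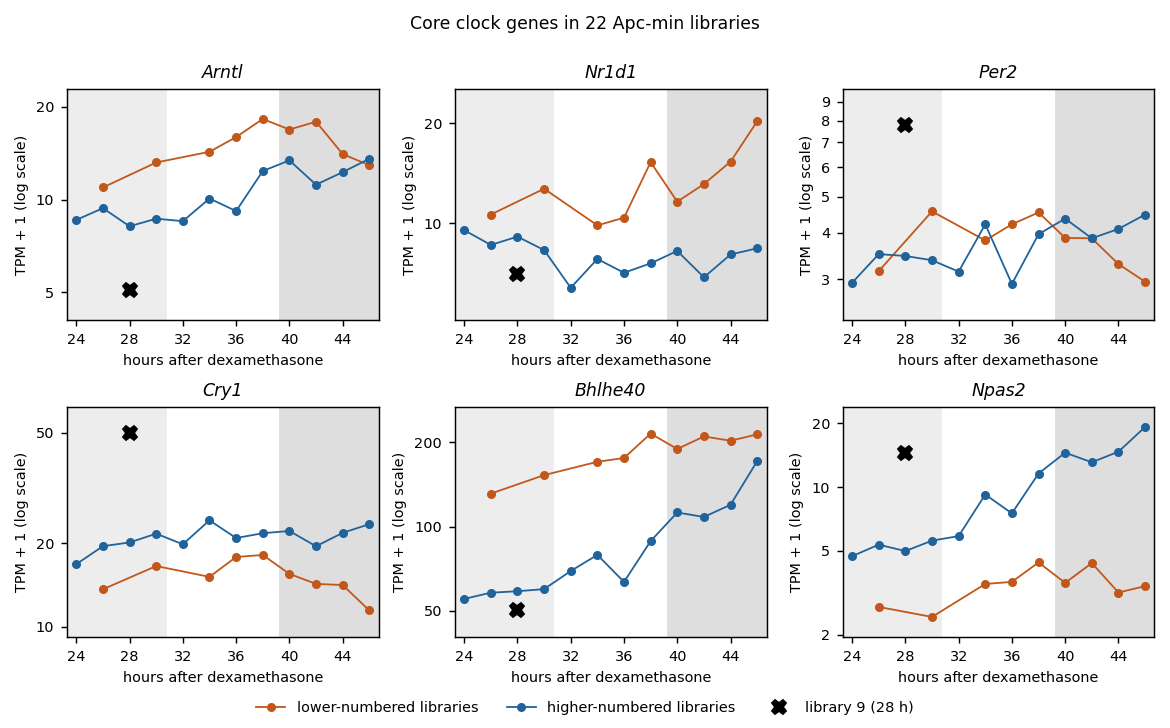
TPM + 1 (log axis) of 6 core clock genes against hours after dexamethasone in all 22 Apc-min libraries, with sets, cross and bands as in the plot of hypoxia genes by library. Library 9 lies apart from the other libraries for Arntl (4.09 TPM), Cry1 (48.6 TPM) and Per2 (6.78 TPM), and Npas2 climbs only in the higher-numbered set (3.71 to 18.2 TPM).

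Genes of the insulin, FoxO and mTOR response, of lysosome and autophagy and of PPAR targets were also called higher late. Over all genes 17% were called higher late, 12.4% without library 9 and 10.6% with median-of-ratios scaling. Of 17 genes of the insulin, FoxO and mTOR response, 11 were called higher late (10 of them also without library 9), with a median difference of 0.52. With the library set as a term and without library 9, that median was 0.33, against 0.08 over all genes. Ddit4, an inhibitor of mTOR that hypoxia and glucocorticoids induce, had medians of 147 and 473 TPM. Its difference was 1.26 ± 0.25 (limma adjusted p = 0.00536), and its slope was 1.16 steeper in the higher-numbered set. Ccng2, a FoxO target, differed by 1.23 (limma adjusted p = 0.00943). Of 22 lysosome and autophagy genes, 13 were called higher (8 also without library 9). They included Ulk1, the kinase that starts autophagy, at 0.78, and Atg9a, a membrane carrier of the same pathway, at 0.65 (limma adjusted p = 0.0134 and 0.00413). With median-of-ratios scaling 6 of the 22 were called. Of 16 PPAR target and fatty acid genes, 8 were called higher, and 3 with median-of-ratios scaling. Lpin1, a phosphatase of lipid synthesis, lay at 9.2 to 17.6 TPM early and at 18.8 to 32.2 TPM late without overlap, a difference of 0.95 ± 0.13 (limma adjusted p = 0.00123).

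Of 18 genes of the unfolded protein and integrated stress responses, 7 were called higher and 1 lower, against 17% and 5.87% of all genes. Trib3 and Chac1, targets of the stress factors ATF4 and CHOP, differed by 1.73 ± 0.36 and 1.29 ± 0.22 (limma adjusted p = 0.00641 and 0.00336). In both, the rise lay in the higher-numbered set: Trib3 read 2.83 to 3.67 TPM there early and 12.5, 20.1, 21.7 and 32.2 TPM at 40, 42, 44 and 46 h, and in the lower-numbered set 17.4 and 15.1 TPM early and 16 to 20.6 TPM late. The slopes differed between the sets by 2.94 for Trib3 and 2.20 for Chac1 (limma adjusted p = 0.00309 and 0.00388). Hmox1, which breaks down haem, differed by 1.59 ± 0.38 (limma adjusted p = 0.0103). Neat1, a nuclear non-coding RNA, differed by 1.22 ± 0.23 (limma adjusted p = 0.0048). Of 14 interferon response genes, 5 were called higher with all libraries (all genes: 17%). Without library 9, 1 of the 5 was called, against 12.4% of all genes.

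**Figure D4:**
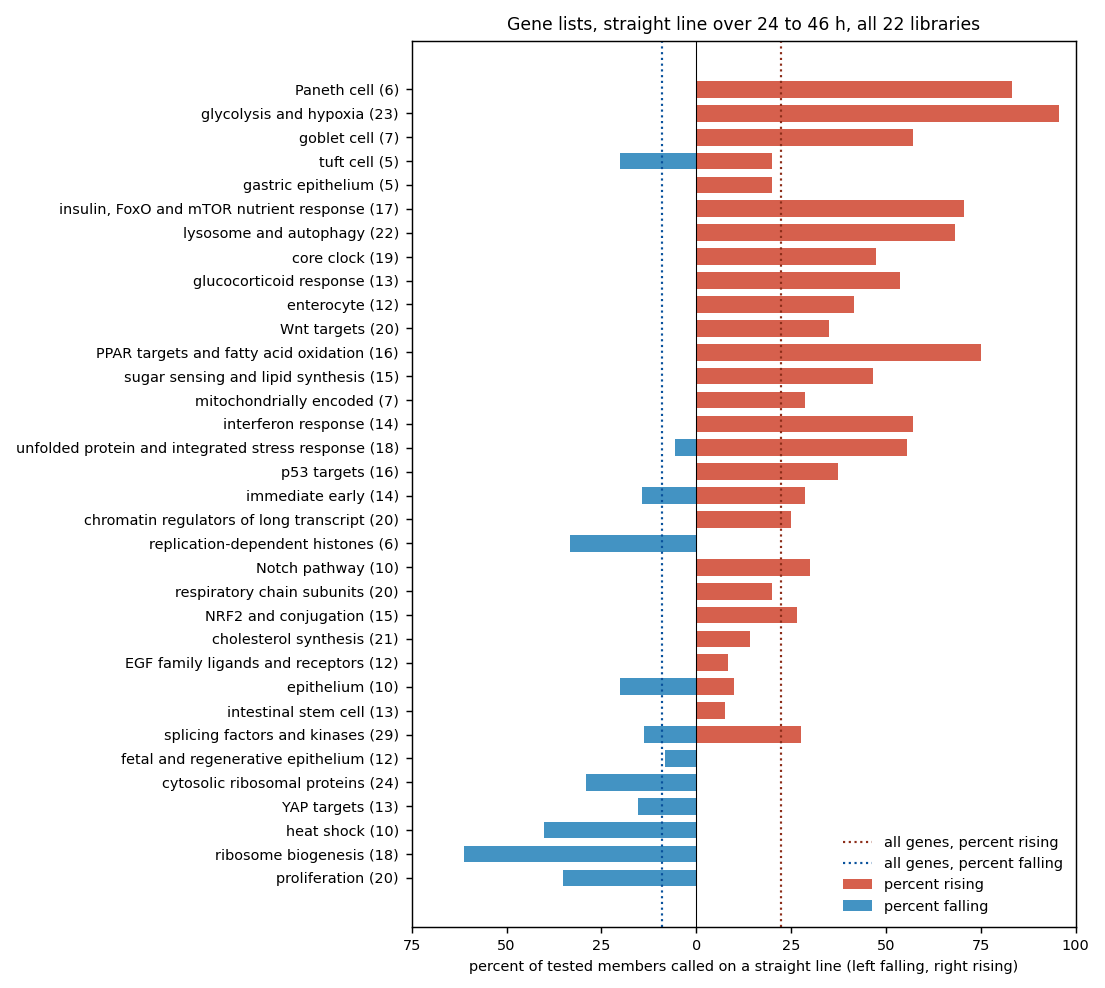
Percent of tested members of each gene list of 5 or more tested genes with a called straight line over 24 to 46 h in all 22 Apc-min libraries; red bars to the right are rising and blue bars to the left falling members, numbers in brackets are genes tested, and dotted lines give the shares over all genes (22.2% rising, 9.01% falling). Of the lists drawn, the longest rising bar is glycolysis and hypoxia (22 of 23) and the longest falling bar ribosome biogenesis (11 of 18).

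Growth genes had late differences with medians below 0. Of 18 ribosome biogenesis genes, 2 were called lower late (all genes: 5.87%), 1 of them also without library 9 (all genes: 3.59%), with a median of −0.49. With the library set as a term and without library 9, 14 were lower (all genes: 11.8%), with a median of −0.32. Of 20 proliferation genes, 2 were called lower, with a median of −0.52, and neither was called without library 9. With the set term and without library 9, 15 were lower, with a median of −0.35. Rrp9, a factor of ribosomal RNA processing, read 74.8 and 75.9 TPM early in the lower-numbered set, 138 TPM in library 9 and 118 to 139 TPM early in the other set, and 44.2 to 90.6 TPM late over both. Its slopes were −0.75 and −0.77 in the 2 sets, and its late difference was −0.73 ± 0.19 (limma adjusted p = 0.0165). Birc5, an inhibitor of cell death made in dividing cells, differed by −0.65 ± 0.18 (limma adjusted p = 0.0198). In the lower-numbered set 19 of the 20 proliferation genes had a falling slope (all genes: 7.88%), and 10 in the higher-numbered set (all genes: 9.49%). The median slopes were −0.79 and −0.30.

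The falls among single genes were smaller than the rises: 6 genes were called at least 2-fold lower late (5 also without library 9) and 149 at least 2-fold higher (85 also without it). Exosc6, a subunit of the RNA exosome, had the lowest values. It read 52.5, 65 (library 9) and 16.3 TPM at 26, 28 and 30 h in the lower-numbered set and is listed at 0 at 38, 42 and 44 h, with 1.95 TPM at 40 h and 10.2 TPM at 46 h. In the higher-numbered set it read 68, 57.8, 55 and 52.2 TPM early and 8.06, 28.1, 9.46 and 2.68 TPM late. Its difference was −3.34 ± 0.64 (limma adjusted p = 0.005), with overlap between windows. Lor, loricrin of the cornified envelope, lay at 86.3, 131 and 168 TPM early and at 48.5, 67.5 and 81.6 TPM late without overlap, a difference of −0.88 ± 0.13 (limma adjusted p = 0.00208). The windows also did not overlap for Acta1, skeletal muscle actin (−1.27), Emp3, a membrane protein (−0.87), and Pmp22, its relative (−0.87). Late libraries lay below all early ones for 70 of all genes (0.555%). Library 9 was the highest early library for Acta1 (18 TPM), Emp3 (11.4 TPM) and Pmp22 (11.2 TPM), and without it the differences were −1.03, −0.74 and −0.74 (limma adjusted p = 0.00285, 0.0016 and 0.0166). Ccl20, a chemokine of the epithelium, differed by −1.25 ± 0.22, and Tm4sf1, a membrane protein, by −1.17 ± 0.27 (limma adjusted p = 0.00395 and 0.00913). Armc6, Phlda2 and Cenps, a centromere protein, differed by −0.77, −0.77 and −0.76.

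Of the 6 tested Paneth cell genes, 5 were called higher late (3 also without library 9), against 17% of all genes (12.4% without library 9). Lyz1, the lysozyme of Paneth cells, lay at 24.3, 43.1 and 56.3 TPM early and at 77.3, 111 and 151 TPM late. No late library overlapped an early one, and the difference was 1.37 ± 0.18 (limma adjusted p = 0.00113). Its slopes were 1.69 ± 0.15 in the lower-numbered set and 1.73 ± 0.11 in the other, a difference of 0.04 ± 0.18. Itln1, a lectin of the same cells, went from 10.4 to 53.5 TPM early to 54 to 72.7 TPM late, a difference of 1.05 ± 0.25 (limma adjusted p = 0.0107). Of the 6 listed defensins, Defa24 lay between 0.68 and 7.38 TPM (median 2.7), Defa21 and Defa22 reached 4.12 and 2.74 TPM from medians of 0 and 0.135, and Defa17, Defa26 and Defa30 stayed under 1 TPM. Of 7 tested goblet genes 3 were called higher, among them Spink4 at 1.41 ± 0.37 (limma adjusted p = 0.0167). Muc2, the main gut mucin, and Clca1 were among 5 of the 14 listed goblet genes that stayed under 1 TPM. Tff3 and Fcgbp of that list had medians of 39 and 32.7 TPM. Of 12 absorptive cell genes 3 were called higher, among them the brush border peptidases Ace (1.32 ± 0.17, limma adjusted p = 0.00113) and Dpp4 (1.09 ± 0.27, 0.0133). Fabp1, Apoa4, Sis and Lct, genes of mature absorptive cells, were among 8 of the 22 listed genes that stayed under 1 TPM. Of the 22, 12 had a mean of 1 TPM or more, with medians of 130 TPM for Anpep, 21.9 for Krt20 and 16.7 for Cdhr5.

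Of 13 stem cell genes only Lgr5, the Wnt receptor partner that marks crypt stem cells, was called higher late without a set term (all genes: 17%). With the library set as a term and without library 9, 7 of the 13 were called higher, against 3421 of all 12629 genes. Lgr5 read 4.16, 5.51, 5.53 and 6.39 TPM early and 26.6, 21.4, 25.8 and 34.5 TPM late in the higher-numbered set. In the lower-numbered set it read 4.52 and 6.1 TPM early, 1.06 TPM in library 9, and 6.91, 9.78, 6.67 and 5.72 TPM late. The rise thus lay in one set: the slopes were 2.83 ± 0.20 and 0.44 ± 0.26, which differed by 2.39 ± 0.33 (limma adjusted p = 0.000436). Over both sets the late difference was 1.48 ± 0.40 (limma adjusted p = 0.0181). Of 20 Wnt target genes, Lgr5 included, 5 were called higher, against 17% of all genes. Markers of other cells moved too. Of 10 immune markers, Lyz2 and Cd68 passed a mean of 1 TPM, and the summed list went from 8.12 to 19.6 TPM early to 25.7 to 43 TPM late. Ptprc, Cd3e and Adgre1, which define immune cells, stayed under 1 TPM in all libraries. Of 5 smooth muscle markers Acta2 passed, and the summed list went from 1.8 to 11.3 TPM early to 0.65 to 1.85 TPM late. The part of these lists in the results was not tested.

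**Figure D5:**
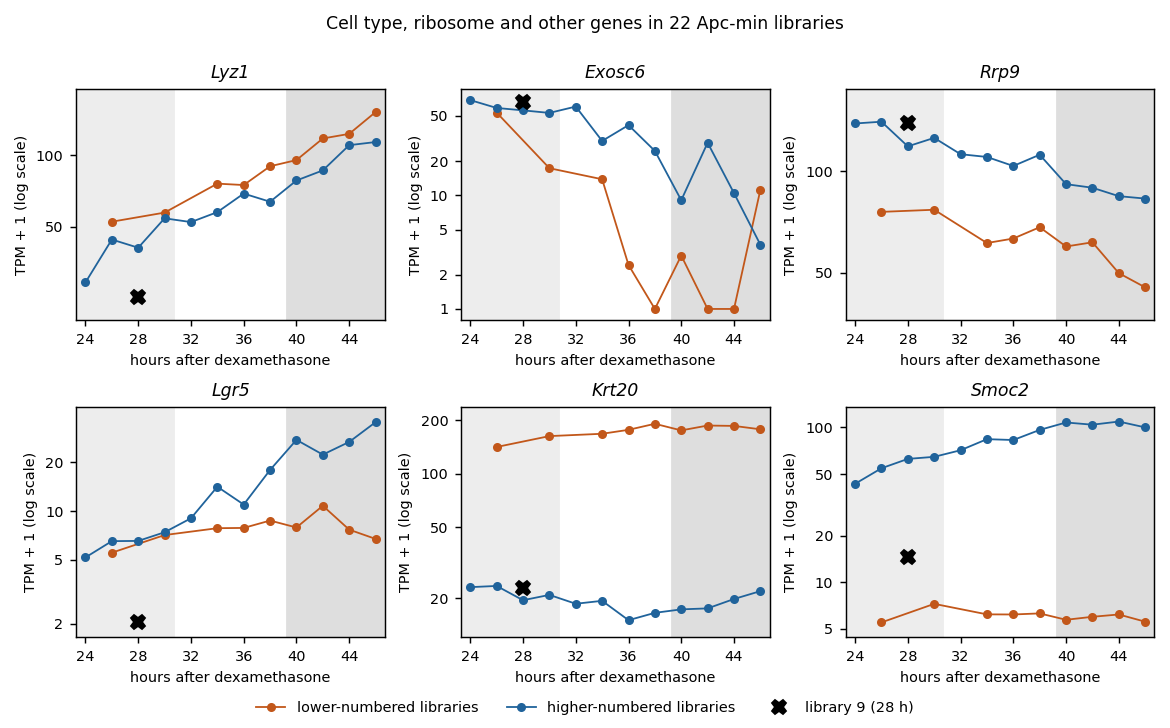
TPM + 1 (log axis) of Lyz1, Exosc6, Rrp9, Lgr5, Krt20 and Smoc2 against hours after dexamethasone in all 22 Apc-min libraries, with sets, cross and bands as in the plot of hypoxia genes by library. Lyz1 rises in both sets, Lgr5 in the higher-numbered set (4.16 to 34.5 TPM), and of the 10 times with a pair, Smoc2 is higher in the higher-numbered set at all 10 and Krt20 far lower there at all but 28 h, where library 9 lies near it.

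The 2 library sets differed in level throughout, which limits the tests over time. With all libraries 7860 of 12625 genes differed between them (62.3%), 4594 higher in the higher-numbered set (36.4%) and 3266 lower (25.9%). All 13 stem cell, all 20 proliferation and all 18 ribosome biogenesis genes tested were called higher in the higher-numbered set. Of the 6 Paneth cell genes tested, 0 were called higher there and 3 lower. Of the 20 Wnt target genes, 7 were called higher there and 4 lower. Smoc2, a stem cell gene, had a mean of 5.94 ± 2.71 TPM (SD, n = 10) in the lower-numbered set and 80.7 ± 22.3 TPM (n = 12) in the other. Sfrp5, a secreted inhibitor of Wnt, had 0.23 ± 0.08 and 11.7 ± 2.79 TPM. Krt20, a keratin of differentiated gut cells, had 158 ± 50 and 18.4 ± 2.59 TPM, with 21.7 TPM in library 9, and Prap1 had 19.9 ± 8.57 and 0.501 ± 0.311 TPM. Of the lists of genes that rose late, 20 of 23 hypoxia and glycolysis genes and 20 of 22 lysosome genes were lower in the higher-numbered set. The late values of that set and the early values of the other were thus close for several hypoxia genes: Vegfa read 112 TPM at 46 h in the one and 96.4 TPM at 26 h in the other. Whether the sets are the 2 organoid lines is not given in the labels.

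Slopes over 24 to 46 h were compared with those of the Bmal1-null Apc-min organoids, which shared medium EN. Of 12885 genes, 22 rose more (0.171%) and 14 less (0.109%) in Apc-min organoids. With the library set within genotype as a term, 471 rose more and 690 less, so the count depends strongly on that term. Without that term, as in the values that follow, 0 of the 23 hypoxia genes and 0 of the 19 clock genes were called by limma. At an unadjusted p under 0.05 the counts were 3 and 1, against 2826 of all 12885 genes. The count of 36 calls in both directions ran from 8 without the Apc-min 44 h library 41 to 676 without the Apc-min 26 h library 5. It moved by over 1.5 times for 33 of the 44 libraries left out in turn. Bnip3 had a slope of 4.33 in the Bmal1-null organoids and 4.98 here, and Slc16a3 5.24 and 5.19, differences of 0.65 ± 1.52 and −0.05 ± 1.54 (limma adjusted p = 0.831 and 0.987). The wide errors do not show that the slopes are alike. Vim, an intermediate filament gene, rose by 1.41 here and had a slope of −0.94 in the Bmal1-null organoids (difference 2.35 ± 0.42, limma adjusted p = 0.00316). Gstp3, a glutathione transferase, and Pxdc1 differed by 1.21 and 1.02 in the same direction, and Anxa5, an annexin, by 0.76. Cth, which makes cysteine, had a slope lower by 1.05 (limma adjusted p = 0.00697). All 5 were also called without the 28 h libraries 9 and 10.

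Against control organoids, 2251 of 13663 genes rose more in Apc-min organoids (16.5%) and 695 rose less (5.09%), or 1463 and 1511 with median-of-ratios scaling. Without the second control library at 46 h the 2946 calls became 1735. Here Apc genotype, medium and the range of library numbers cannot be told apart. Of the hypoxia and glycolysis genes 22 rose more than in control organoids, where Bnip3 and Slc16a3 had slopes of 0.46 and 0.15. The difference was 4.51 ± 1.11 for Bnip3 and 5.04 ± 1.03 for Slc16a3 (limma adjusted p = 0.00532 and 0.00136). The lowest adjusted p-values belonged to Lyz1, Unc93b1, Ly6a, Car9 and Gstt3. Lyz1 had a slope of 0.22 in control organoids (difference 1.73 ± 0.19, limma adjusted p = 2.71e-07). Ly6a, a surface protein of regenerating epithelium, fell by 1.31 there and its slopes differed by 1.41 ± 0.18 (limma adjusted p = 2.07e-06). Of the 19 clock genes, 8 also rose more than in control organoids.

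Mitochondrially encoded genes summed to 15050 ± 2645 TPM early (SD, n = 7) and 18900 ± 1804 TPM late (n = 8), a difference of 3848 TPM (two-sided exact permutation test, p = 0.00622, adjusted over 6 measures 0.0373). Without library 9 the difference was 3411 TPM (exact permutation p = 0.0133, adjusted 0.0799). For uniquely mapped reads, percent uniquely mapped, mismatch rate, percent too short and the slope of log2 TPM on gene length, adjusted p-values by the same exact test were 0.866 to 1. The part of the mitochondrial share in the other results was not tested.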

How the data were processed

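RNA was measured as single 101-base reads from directional libraries, per the labels' protocols. Per the submitters' processing notes the authors used STAR 2.5, RSEM 1.3.0 and GRCm38, and deposited TPM values for 55536 gene IDs. Symbols were added here from the GENCODE annotation, which held 55450 of these IDs. The authors also deposited a quantile-normalized TPM table of 15559 genes, used here as an alternative, and a mapping summary whose read counts and percent values per library gave the depth. All TPM columns had the same total, so TPM holds no depth, and count tests were not used.

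From these values log2(TPM + 1) was computed for genes whose mean reached 1 TPM. Library groups came from the labels. limma 3.58.1 in R 4.3.3 (eBayes with a mean trend) fitted a cosine of 24 h period, a straight line, late (40 to 46 h) against early (24 to 30 h), the library set difference, a line in each set and slope differences between genotypes, with Benjamini-Hochberg adjustment over all genes tested and calls at an adjusted p under 0.05. Library measures were compared with exact permutation tests (scipy 1.17.1). Python 3.11.15, numpy 2.4.6, pandas 2.3.3 and matplotlib 3.10.9 were used. On simulated data, 50 genes among 12625 were changed at each of 1.5, 2, 3 and 4-fold. Of the 2-fold genes 82% were recovered for the cosine, 82% for the line, 78% for late against early and 96% for the set difference. False calls were 5.1%, 3.13%, 7.18% and 4.35% of all calls. The simulated noise was independent between libraries, with no shared set structure and no doubtful library, so these shares need not hold for the real data.

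Genes were named by rule: the tested clock genes, the 10 largest called late changes each way with at least 5 TPM on average in the higher window and no predicted, pseudogene or clone name, up to 10 cosine genes with a peak more than 3 h from 29 and 41 h, up to 4 members of each gene list with the largest late difference, the 5 largest set differences each way and the 5 lowest adjusted p-values of each slope difference. Other genes named (Hif1a, Hif3a, Car9, Pdk1, Slc2a1, Pgk1, Ldha, Hmox1 and Sfrp5 among them) were taken after their values were seen. Some genes the rule names are not reported here. The genotype and the lists were chosen with earlier results of these data known. Promoters were matched by symbol to a RefSeq table (GRCm38.p6). Alternatives were other pseudocounts, filters and scalings, the library set as a block, gene-length slope as a covariate, and leaving out library 9 or each library in turn. The 2 labelled libraries without a column in the table were not used here.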

Additional observations from a re-analysis of the deposited data

Results flagged for a closer look

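Single libraries stood far from the rest of their window, by Dixon's criterion at 95%, in 9 of 90 windows checked. Chance gives about 1 in 20. In 4 of the 9 the library was the 28 h library 9: Cry1 at 48.64 TPM, Nr1d2 at 2.87 TPM, Acta1 at 18.01 TPM and Emp3 at 11.43 TPM. The 26 h library 5 was low for Clock (7.24 TPM), for percent uniquely mapped (85.85) and for the slope of log2 TPM on log2 gene length (−0.1181). The 30 h library 13 was low for Exosc6 (16.34 TPM), and the 40 h library 36 had the highest mitochondrial sum of the late window, 22920 TPM.

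Changes over time that differed between groups were tested as slopes in limma. Between the library sets the slope over 22 h was higher in the higher-numbered set by 4.266 for Bnip3, 3.365 for Ak4, 2.220 for Egln3, 1.159 for Ddit4 and 0.943 for Tpi1. Against the Apc-min Bmal1-null organoids it was higher by 2.350 for Vim, 1.214 for Gstp3, 1.021 for Pxdc1 and 0.757 for Anxa5, and it differed by −1.046 for Cth. Against control organoids it was higher by 1.900 for Car9, 1.725 for Lyz1, 1.407 for Ly6a, 1.142 for Unc93b1 and 1.136 for Gstt3, a comparison in which medium and genotype cannot be told apart.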

How the results depend on the processing

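No called value of a named gene changed sign under the alternatives run. The calls were less steady. Of the late values of named genes under alternatives other than leaving out each library in turn, 1142 stayed on their side of the threshold and 200 lost their call, 97 of these in the lower-numbered libraries alone. Cosine calls (1513) became 401 without library 9, 587 with no filter, 5658 with the gene-length slope as a covariate and 797 on the quantile-normalized table. They became 0 by limma in the lower-numbered libraries alone (unadjusted 4015), in the higher-numbered alone (3219), with a linear time term (345) and with time as a factor (428). Straight-line calls (3943) became 6919 with the gene-length covariate and 832 in the lower-numbered libraries alone. Late calls (2884) became 6547 with that covariate and 1 in the lower-numbered libraries alone (unadjusted 3074). Leaving out each library gave 401 to 2643 cosine, 2778 to 4797 line, 1663 to 3920 late and 7272 to 8759 set calls, and 112 to 339, 8 to 676 and 1735 to 4181 slope calls between sets, against Bmal1-null and against control organoids. Set slope calls (193) became 23 with library 9. Slope calls against Bmal1-null organoids (36) became 18 with no filter, 17 with a pseudocount of 0.1 and 107 with median-of-ratios scaling. The mitochondrial difference of 3848 TPM became 3411 without library 9 (exact permutation, adjusted p = 0.0799).

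With the library set as a replicate block, cosine calls became 4179, or 4418 without library 9, late calls 4731 and 4908, and slope calls 1161 against Bmal1-null and 4953 against control organoids. The block with a linear term, without library 9, left 0 cosine calls by limma (unadjusted 1932), and the block with the gene-length slope, without library 9, gave 4714 cosine, 6864 line and 6288 late calls. These 2 and the slopes by set were added after seeing the data. The labels do not say that the sets pair the libraries.

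Median-of-ratios scaling gave 1980 rising and 2346 falling lines, against 2806 and 1137 with TPM, and quantile normalization gave 1771 and 2191, with 1190 higher and 1474 lower late. The set difference with the gene-length covariate gave 3240 higher and 4072 lower. On the quantile-normalized table library 9 was not dropped, the block not used and the set difference not run. TPM holds no read numbers, so counting error at low values was not estimated.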

Other observations

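A few cosine calls had fitted peaks away from the times of the straight rise and fall: 19 genes peaked more than 3 h from both 29 and 41 h. Ccnt1, the cyclin of the elongation factor P-TEFb, had an amplitude of 0.13 and a peak at 44.9 h (limma adjusted p = 0.0163, and 0.0312 without library 9). Pmaip1, the cell death gene Noxa, had an amplitude of 0.32 and a peak at 44.2 h (limma adjusted p = 0.0187, and 0.0379 without library 9). Cul3, a ubiquitin ligase scaffold, peaked at 45.7 h, Rheb, the activator of mTOR, at 25.9 h and Mphosph6 at 24.2 h. A second group peaked in mid-course: Asna1 at 36.2 h, Nprl2 (a brake on mTOR) at 37.2 h, Parp11 at 37.5 h, Ppp1r16a at 37.8 h and Men1 at 38 h. Of these 8, only Asna1 was called without library 9 (limma adjusted p = 0.0483). The amplitudes were 0.09 to 0.25. With a linear term and the library set in the fit and without library 9, 0 of the 10 were called by limma (adjusted p of 0.146 or more). All 10 had an unadjusted p under 0.05, as did 1932 of all 12633 genes. The 10 were chosen by their cosine fit in these same libraries, so this count gives no separate support.

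Counts for gene groups not described above are to be read against 17% of all genes called higher late and 5.87% called lower. Of 29 splicing genes, 8 were called higher late and 1 lower, among them Srrm2, a scaffold of nuclear speckles (0.56, limma adjusted p = 0.00113). Of 20 chromatin regulators 3 were called higher, among them Ogt, which adds a sugar to nuclear proteins (0.88, limma adjusted p = 0.0036). Of 24 cytosolic ribosomal protein genes 5 were called lower (2 also without library 9), and of 10 heat shock genes 2 were, among them Hspe1, the mitochondrial co-chaperonin (−0.52, limma adjusted p = 0.00545). Of 10 Notch pathway genes 3 were called higher, among them Notch3 (0.98, limma adjusted p = 0.00523). Of 20 respiratory chain genes 3 were, and of 21 cholesterol synthesis genes 3, which like the chromatin regulators is a share near that of all genes.

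The largest set differences held genes of other kinds. AA467197, the host gene of a microRNA, had a mean of 206 TPM in the lower-numbered set and 19.3 TPM in the higher-numbered one, and Serpina1e, a protease inhibitor, 20.3 and 0.666 TPM. In the other direction Cdo1, which breaks down cysteine, had 5.68 and 29.8 TPM, Clca3b 1.08 and 11.5 TPM and Wfdc2 19.3 and 51.3 TPM. Library 9 held 49.1, 4.72 and 138.3 TPM of these, and without it the means of the lower-numbered set were 0.85, 0.672 and 6.03 TPM.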
